A study of Mus musculus with 32 samples.

Results

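The NR4A and corticosteroid receptors were followed from transferred monocytes to their progeny sorted as gut macrophages. They are 5 genes of the nuclear receptor family, chosen by symbol: Nr4a1 (Nur77), Nr4a2 (Nurr1) and Nr4a3 (Nor1), the glucocorticoid receptor gene Nr3c1 and the mineralocorticoid receptor gene Nr3c2. All 5 were found in both deposited count tables, among 24411 and 24421 genes, of which 24148 symbols are shared. The 5 genes passed the filter on low counts in both fits. Nr4a3 and Nr3c2 had 1 read and 0 reads in the monocytes before transfer, so they were tested only because of the libraries in which they were high. In mm9, the build of the files, Nr4a1 spans chr15:101097277-101105225 on the plus strand, Nr4a2 chr2:56959637-56976414 on the minus strand and Nr4a3 chr4:48058177-48099318 on the plus strand. Nr3c1 spans chr18:39570199-39646899 on the minus strand and Nr3c2 chr8:79426407-79767538 on the plus strand. The reads of each gene are those on its exons.

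The monocyte graft (3 libraries) was sorted as CD117- CD11b+ CD115+ Ly6C+ cells of intermediate GFP from donors with a GFP allele in place of 1 Cx3cr1 allele (Cx3cr1 GFP/+) and the CD45.1 marker. Per the study these were BM cells, whereas the labels give blood as their organ and a gate that spans Ly6C+ and Ly6C- cells. The progeny were sorted from the gut of BM chimeras, which were wild-type hosts irradiated at 7 to 10 weeks of age and given BM of CD11c-DTR mice. Per the study, the progeny were sorted by the donor markers CD45.1 and GFP. The gut gate in the labels was CD45+CD11b+CD64+Ly6C-MHCII+ among DAPI- cells and names no donor marker. In CD11c-DTR mice (Itgax-DTR/GFP) the Itgax promoter drives the diphtheria toxin receptor together with GFP, and all strains were on a C57BL/6 background. Per the labels, all recipients received diphtheria toxin (DTx) at 18 ng per gram before the transfer and at 9 ng per gram after it, so no engrafted library lacks the toxin. Cells sorted as macrophages came from colon on day 4 (3 libraries), day 8 (3) and day 12 (4), and from ileum on days 4, 8 and 12 (4 each). In a second set, 6 libraries of GFP cells were made from colon of recipients of CX3CR1-DTR BM, in which the Cx3cr1 locus directs the toxin receptor, on day 14 per the study. Another colon day 8 library, replicate 1, is not among the 3 repeats of the study and enters only where it is named. Neither source says how many animals made up a library, so the p-values measure the spread between libraries. Dates in the titles place the CD11c-DTR libraries in 3 transfers, each with a graft library of its own.

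Depth, as reads on genes, ranged from 591817 to 5228664 over the 25 libraries of the CD11c-DTR experiment and from 1223772 to 4218027 in the CX3CR1-DTR set. Levels are given below as normalized reads, which are counts per 10000000 reads on genes. The floor of 3 counts equals 5.74 to 50.69 normalized reads, depending on the library, and covers counting error only. The marker genes of other cells differed between the groups. The summed level of 8 epithelial markers (Epcam, Krt8, Cdh1 and others) was 47 to 86 normalized reads in the graft, with Vil1 at 0, and 159538 to 241666 in the 10 colonic libraries. It was 29201 to 86964 in 10 of the 12 ileal libraries, and 192235 and 201904 in the 2 ileal day 4 libraries of transfer 1, which thus lay in the range of colon. The sum of 6 pan-leukocyte markers (Ptprc, Tyrobp and others) was 119753 to 138289 in the graft, 2648 to 12750 in colon and 8555 to 67589 in ileum. All 8 macrophage markers were detected in every engrafted group, with sums of 4059 to 27412 in colon and 10904 to 106126 in ileum. In colon these sums lay below the epithelial sums in every library, so macrophage is the name of the sort and not of the RNA content. Of the other lists, the monocyte sum was 50883 to 61556 in the graft and 3197 to 13882 in the 22 engrafted libraries. In the latter, goblet cell markers summed to 10975 to 89606, colonic enterocyte markers to 937 to 42919, small intestinal enterocyte markers to 2072 to 65787, fibroblast markers to 330 to 7772, endothelial markers to 173 to 5194, T cell markers to 31 to 891 and B cell markers to 0 to 819. In such bulk libraries, fewer cells of a type and less RNA per cell cannot be told apart. Colonic tissue was digested for 40 minutes and ileal tissue for 20 minutes, so segment and digestion cannot be told apart either.

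Nr4a1, Nr4a2 and Nr4a3 encode nuclear receptors that act without a classical ligand and are controlled through the amount of their transcripts. They are immediate early genes, induced within minutes to hours by signals such as cAMP, calcium, growth factors and Toll-like receptor ligands. Nr4a1 is required for the survival of Ly6C low monocytes. Nr3c1 and Nr3c2 encode steroid receptors that reside in the cytoplasm with chaperones of the Hsp90 complex and enter the nucleus once they have bound a corticosteroid. Nr3c1 mediates the anti-inflammatory action of glucocorticoids in monocytes and macrophages. Nr3c2 binds aldosterone and glucocorticoids and drives sodium uptake in epithelia of the kidney and distal colon.

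The promoters of the 3 NR4A genes are shown because the cAMP response element, through which the factor CREB acts, is a known control of these genes. Given are the 250 bases upstream of the annotated start in RefSeq (GRCm38.p6, a later build than that of the counts), 5′ to 3′ on the strand of the gene. Capitals mark the core of the element, TGACG, on either strand, so that it reads TGACG or CGTCA. The position of Nr4a1 is chr15:101266596-101266845 (plus strand), of Nr4a2 chr2:57124004-57124253 (minus strand), of Nr4a3 chr4:48045055-48045304 (plus strand) and of Nr3c2 chr8:76902080-76902329 (plus strand), which is shown for comparison.
Nr4a1: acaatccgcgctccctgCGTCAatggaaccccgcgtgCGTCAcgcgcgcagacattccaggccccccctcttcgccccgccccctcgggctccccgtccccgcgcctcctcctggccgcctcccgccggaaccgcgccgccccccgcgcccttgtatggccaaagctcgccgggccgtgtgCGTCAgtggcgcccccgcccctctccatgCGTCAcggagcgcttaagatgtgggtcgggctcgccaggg
Nr4a2: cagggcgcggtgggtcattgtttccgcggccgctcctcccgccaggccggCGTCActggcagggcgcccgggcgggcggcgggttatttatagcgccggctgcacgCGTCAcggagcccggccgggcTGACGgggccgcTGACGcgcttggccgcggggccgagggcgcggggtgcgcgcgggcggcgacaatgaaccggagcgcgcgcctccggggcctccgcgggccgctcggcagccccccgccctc
Nr4a3: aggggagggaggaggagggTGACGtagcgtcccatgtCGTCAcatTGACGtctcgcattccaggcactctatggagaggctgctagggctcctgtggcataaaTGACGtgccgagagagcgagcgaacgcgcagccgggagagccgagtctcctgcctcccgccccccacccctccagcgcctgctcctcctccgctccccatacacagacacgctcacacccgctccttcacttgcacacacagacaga
Nr3c2: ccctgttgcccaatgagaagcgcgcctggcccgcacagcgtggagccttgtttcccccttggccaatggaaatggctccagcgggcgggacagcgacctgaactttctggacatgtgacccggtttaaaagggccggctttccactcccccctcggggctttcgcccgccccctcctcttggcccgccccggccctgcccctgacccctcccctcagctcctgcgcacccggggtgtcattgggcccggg
Each of the 3 NR4A promoters held 4 matches of TGACG and the Nr3c2 promoter held 0. Of 32851 promoters of this length, 17.77% held at least 1 match and 0.137%, or 45 promoters, at least 4. All 4 matches of Nr4a1 were part of the longer form TGCGTCA, which overlaps the core. This form occurred in 1.75% of promoters, was absent from the windows of Nr4a2, Nr4a3 and Nr3c2, and had 4 matches in 1 promoter of all those searched. The full palindrome TGACGTCA, the AGAACA motif of the steroid receptors and the NR4A element (AAAGGTCA) had 0 matches in the 4 windows, and occurred in 1.55, 16.08 and 1.34% of all promoters. These matches describe letters and are not measured binding sites.

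The graft was compared with the engrafted libraries of each day and segment to ask which of the receptors differ between them. Nr4a3 was higher and Nr3c2 was detected in all 6 groups of engrafted libraries. The rise of Nr4a1 passed the test in 5 of the 6 comparisons and that of Nr4a2 in 4, and the fall of Nr3c1 passed in 5. A gene was called at an edgeR adjusted p under 0.05, with p-values adjusted over all genes tested. Of the 5 receptors, 2 were higher and 1 lower in colon on day 4, where 35.9% of the 11842 genes were called higher and 24.5% lower, 60.4% in all. On day 8 in colon 3 were higher and 1 lower, against 35.2% and 23.9% of all genes (59.1% in all), and on day 12 4 were higher and 1 lower, against 37.7% and 24.9% (62.6%). In ileum 4 were higher and 1 lower on day 4 (36.2% and 20.5% of all genes, 56.7% in all) and on day 8 (34.3% and 19.5%, 53.9% in all). On day 12 in ileum 4 were higher and 0 lower (35.9% and 20% of all genes, 55.9% in all). With so many genes called, such counts are read against a high background. Each count of higher receptors includes Nr4a3 and Nr3c2, which entered the test only through libraries in which they were high. Changes are relative to the TMM scaling, under which the median log2 fold change of all genes from the graft was 0.20 to 0.24, against -0.35 to -0.04 with library totals. The 6 comparisons share the same 3 graft libraries.

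**Figure D1:**
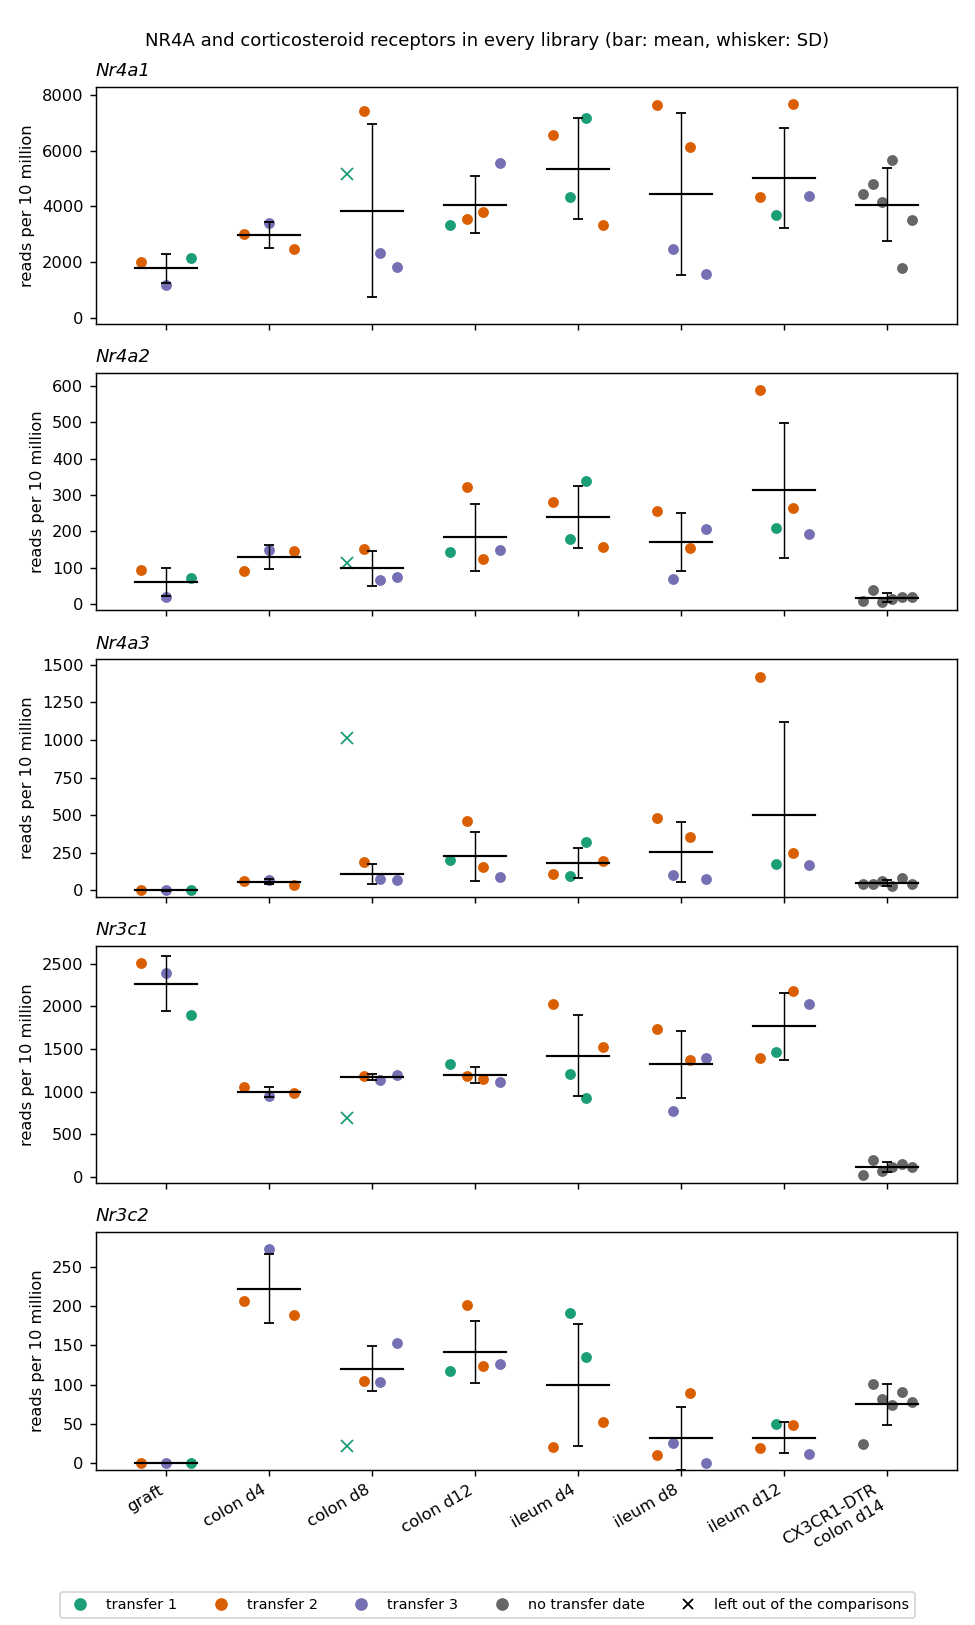
Levels of the 5 receptor genes in every library, in reads per 10000000 reads on genes (vertical axis, linear) by group (horizontal axis). Points are libraries coloured by transfer, bars are means and whiskers the SD, cut at the edge of the panel; the cross is colon day 8 replicate 1, which was left out. Nr4a1 means lie above and Nr3c1 means below the graft, Nr3c2 is highest in colon on day 4, and Nr3c1 and Nr4a2 are lowest in the CX3CR1-DTR libraries.

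Nr4a1 had 1998, 1160 and 2148 normalized reads in the 3 graft libraries. In colon it had 3014, 3417 and 2480 on day 4, 7418, 2315 and 1819 on day 8, and 3334, 3542, 3814 and 5563 on day 12. All 22 engrafted libraries lay above the graft library of their own transfer, by 0.31 to 2.26 on the log2 scale, and 20 of them above every graft library. In ileum Nr4a1 had 6579, 4346, 7198 and 3326 normalized reads on day 4, 7642, 2453, 6127 and 1575 on day 8, and 4334, 3681, 7699 and 4388 on day 12. The rise from the graft was called in ileum on day 4 (log2 fold change 1.68 ± 0.47, SE, adjusted p = 0.00383), day 8 (1.45 ± 0.46, adjusted p = 0.0113) and day 12 (1.64 ± 0.47, adjusted p = 0.00465). In colon it was called on day 8 (1.24 ± 0.48, adjusted p = 0.0306) and day 12 (1.34 ± 0.46, adjusted p = 0.0147), and the day 4 value of 0.90 ± 0.48 did not pass (adjusted p = 0.108), though it did with the compared groups only (0.98). The levels on day 8 split by transfer in both segments: the 3 libraries of transfer 2 had 6127 to 7642 normalized reads and the 4 libraries of transfer 3 had 1575 to 2453. The colon day 8 call rested on the transfer 2 library, since without it the fold change was 0.38 and not called. With library totals in place of TMM the calls of colon day 8 (1.02), colon day 12 (0.98) and ileum day 8 (0.94) were lost. The day 8 call in colon was also lost without graft replicate 1 or 2 (1.26 and 1.00), and those of colon day 12 and ileum day 8 without graft replicate 2 (1.10 and 1.2).

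Nr4a2 was sparser, with 94.0, 19.2 and 70.4 normalized reads in the graft. It had 91.6, 149 and 146 in colon on day 4, 152, 67.1 and 74.6 on day 8, and 142, 322, 124 and 149 on day 12. In colon the rise passed only on day 12 (1.72 ± 0.55, adjusted p = 0.00951), against 1.25 ± 0.59 on day 4 (adjusted p = 0.0679) and 0.81 ± 0.59 on day 8 (adjusted p = 0.249). Ileum had higher levels, with 281, 180, 338 and 158 normalized reads on day 4, 256, 67.9, 154 and 206 on day 8, and 589, 208, 264 and 192 on day 12. The ileal rise was called on day 4 (2.04 ± 0.57, adjusted p = 0.00411), day 8 (1.70 ± 0.57, adjusted p = 0.0139) and day 12 (2.60 ± 0.56, adjusted p = 0.000396). Of the 22 engrafted libraries, 21 lay above the graft library of their transfer. Without graft replicate 2, the graft library with the lowest level, the calls of colon day 12 (1.25) and ileum day 8 (1.23) were lost, and ileum day 8 was also lost with library totals (edgeR adjusted p = 0.0714). On colon day 4 the rise was called by DESeq2 (1.28), with the compared groups only (1.35) and without graft replicate 1 (1.61).

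Nr4a3 had 1 read in the 3 graft libraries together and was present in every engrafted library. Its levels in colon were 63.0, 71.7 and 38.9 normalized reads on day 4, 189, 78.9 and 66.9 on day 8, and 202, 460, 156 and 87.9 on day 12. The ratio of pooled counts to the graft was 50.2 on day 4 (95% exact counting interval 8.59 to 2025), 84.0 on day 8 (14.7 to 3353) and 173 on day 12 (30.8 to 6859). In ileum the gene had 112, 97.5, 321 and 197 normalized reads on day 4, 484, 104, 353 and 73.1 on day 8, and 1422, 176, 250 and 169 on day 12. The pooled ratios there were 124 on day 4 (21.6 to 4956), 229 on day 8 (40.6 to 9103) and 475 on day 12 (84.9 to 18805). All 6 rises passed, with adjusted p between 7.91e-06 (ileum day 12) and 0.00464 (colon day 4). With 1 graft read the gene passed the filter only through engrafted libraries, so these calls add no support to the rise. The levels were set beside the macrophage markers of the same library, and the match was loose. The library with the most Nr4a3, ileum day 12 replicate 1, had the highest macrophage sum (106126), and colon day 8 replicate 1, which was left out, had 1012 normalized reads of Nr4a3 at a sum of 99758. Against this, ileum day 8 replicate 2 had 104 normalized reads at a sum of 89440 and ileum day 12 replicate 4 had 169 at 48520. Colon day 12 replicate 2 had 460 at a sum of only 27412. The graft libraries had macrophage sums of 14099 to 17525, above those of 8 of the 10 colonic libraries, with 0 to 4.09 normalized reads of Nr4a3. The part of the marker levels in these results was not tested.

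**Figure D2:**
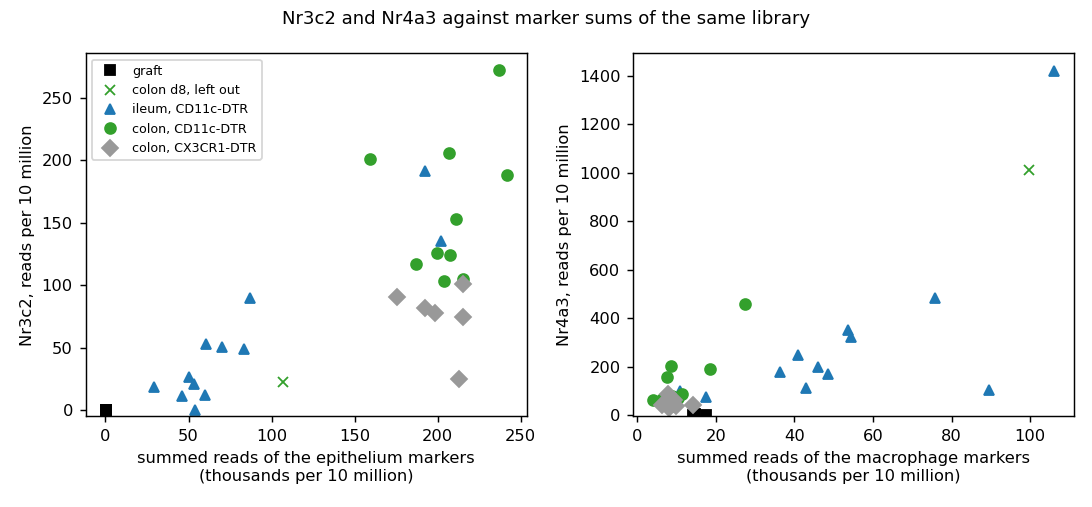
Left, Nr3c2 (reads per 10000000, vertical axis) against the summed level of 8 epithelial markers (in units of 1000 reads per 10000000, horizontal axis); right, Nr4a3 against that of 8 macrophage markers. Each point is a library; squares are graft, circles colon and triangles ileum of CD11c-DTR recipients, diamonds CX3CR1-DTR colon and the cross the colon day 8 library left out. Libraries with few epithelial reads had little Nr3c2, and the 2 libraries with the highest macrophage sums had the most Nr4a3.

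Nr3c1, which encodes the glucocorticoid receptor, was the only receptor that was higher in the graft than in the engrafted groups of CD11c-DTR recipients. It had 2508, 2396 and 1894 normalized reads in the graft. Colon had 1056, 948 and 979 on day 4, 1179, 1136 and 1199 on day 8, and 1325, 1184, 1145 and 1114 on day 12. The 10 colonic libraries lay below all graft libraries, and within each day they differed little, with SDs of 55.9, 32.2 and 93.4. Groups that do not overlap were common in these comparisons, with 71.9, 72.1 and 67.5% of all genes from the graft to colon days 4, 8 and 12. The fall was called on day 4 (-1.03 ± 0.23, adjusted p = 0.000501), day 8 (-0.81 ± 0.23, adjusted p = 0.00408) and day 12 (-0.79 ± 0.21, adjusted p = 0.00241). In ileum the gene had 2027, 1202, 929 and 1525 normalized reads on day 4, 1730, 778, 1375 and 1395 on day 8, and 1392, 1462, 2180 and 2026 on day 12. The 2 lowest values of day 4 were the libraries of transfer 1 with epithelial markers in the range of colon. The ileal fall passed on day 4 (-0.63 ± 0.21, adjusted p = 0.0144) and day 8 (-0.58 ± 0.21, adjusted p = 0.0238), and the day 12 value was -0.22 ± 0.21 (adjusted p = 0.406). Without the transfer 1 libraries the day 4 value was -0.42 and not called, and the day 8 call was lost without graft replicate 1 or 2 (-0.55 each) or ileum day 8 replicate 2 (-0.40). All 22 engrafted libraries lay below the graft library of their own transfer, by 0.20 to 1.62 on the log2 scale. The size of the fall depends on the scaling: with library totals in place of TMM, Nr3c1 was called on ileum day 12 as well (-0.70).

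Set against the leukocyte markers of the same library, Nr3c1 had the opposite order. It had 17.8 ± 3.70 reads (SD, n = 3) per 1000 reads of the 6 pan-leukocyte markers in the graft, against 235 ± 97.2 (n = 4) in colon and 65.6 ± 34.8 (n = 4) in ileum on day 12. For Nr4a1 the ratios were 13.7 ± 4.13, 821 ± 421 and 188 ± 127. These ratios carry the fall of the denominator, since the leukocyte markers themselves were 20.2-fold lower in colon and 3.71-fold lower in ileum on day 12 than in the graft. A gene with an equal level in all libraries would rise by the same factors. The share of the receptor reads that came from macrophages was not measured.

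**Figure D3:**
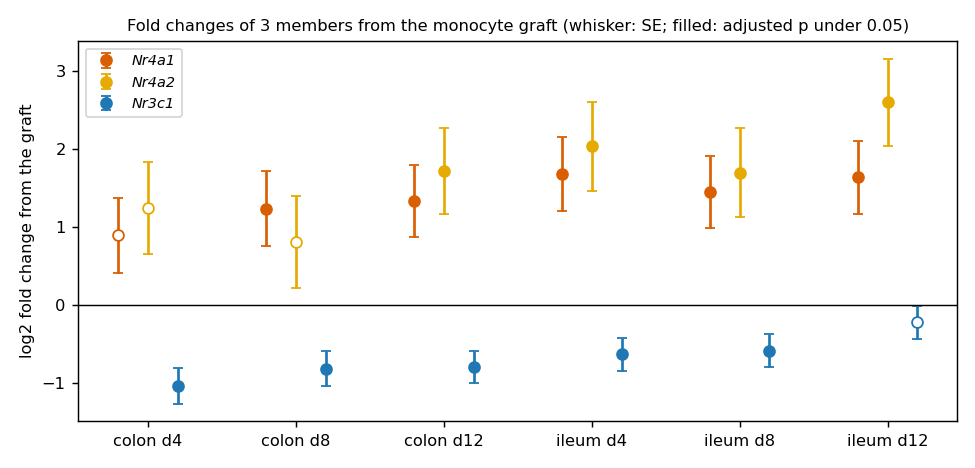
Log2 fold changes of Nr4a1, Nr4a2 and Nr3c1 (vertical axis) from the graft to each day and segment (horizontal axis), from the edgeR fit of 25 libraries. Whiskers are SEs, and filled points have an adjusted p under 0.05. Nr4a1 and Nr4a2 lie above 0 in all 6 comparisons and Nr3c1 below 0, with the smallest fall in ileum on day 12 (-0.22). Nr4a3 and Nr3c2 are not drawn, since the graft had 1 read and 0 reads.

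Nr3c2, the mineralocorticoid receptor gene, had 0 reads in all 3 graft libraries. It had 206, 272 and 188 normalized reads in colon on day 4, 105, 103 and 153 on day 8, and 117, 201, 124 and 126 on day 12. Against the mean floor of 3 counts per graft library, 10.35 normalized reads, the colonic means were at least 21.4-fold higher on day 4, at least 11.6-fold on day 8 and at least 13.7-fold on day 12. In ileum there were 21.0, 191, 135 and 52.6 normalized reads on day 4, 0 to 89.9 on day 8 (2, 5, 14 and 0 reads), and 18.8, 50.4, 49.0 and 11.8 on day 12. The 2 high values of ileum day 4 were the libraries of transfer 1, whose epithelial markers lay in the range of colon. The ileal means were at least 9.66-fold higher than the floor on day 4, at least 3.06-fold on day 8 and at least 3.14-fold on day 12. The difference from the graft was called in all 6 comparisons, with adjusted p between 3.43e-06 (colon day 4) and 0.00156 (ileum day 8), and 21 of 22 engrafted libraries held reads. With 0 graft reads the gene passed the filter only through engrafted libraries, so these calls add no support to the difference. Across the groups of the CD11c-DTR experiment the Nr3c2 level followed the epithelial markers: it was 0 in the graft, where these were near 0, 103 to 272 in the 10 colonic libraries and 0 to 89.9 in the 10 ileal libraries with low epithelial sums. Within colon the orders differed: day 12 replicate 2 had 201 normalized reads at the lowest colonic sum (159538), and day 8 replicate 2 had 105 at 215298. The CX3CR1-DTR colonic libraries, compared below, had 24.5 to 101 normalized reads at epithelial sums of 175618 to 215354. The part of epithelial RNA in the Nr3c2 reads was not tested.

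Colon was compared with ileum on each day to ask whether the receptors differ between the 2 segments. Nr3c2 was higher and Nr3c1 lower in colon on day 12, and no NR4A gene was called on any day. On day 4 none of the 5 was called by edgeR, against 0.524% of all genes higher and 2.66% lower in colon (377 genes, 3.18%), none had an unadjusted p under 0.05, and DESeq2 called 0. Nr4a2 (91.6 to 149 normalized reads in colon, 158 to 338 in ileum) and Nr4a3 (38.9 to 71.7 and 97.5 to 321) did not overlap on that day, as was the case for 13.5% of all genes. With the ileum day 4 libraries of transfer 2 only, Nr3c2 was called on day 4 as well (2.94). On day 8 1 of 5 was called, Nr3c2 (1.92 ± 0.69, adjusted p = 0.0361), which was higher in colon as were 16.7% of all genes, with 35% called in all. The day 8 groups did not overlap, with 103 to 153 normalized reads in colon and 0 to 89.9 in ileum, and neither did those of 36.7% of all genes. On day 12 1 of 5 was higher and 1 lower in colon, against 15.3% and 17.2% of all genes (32.5% in all). Nr3c2 was 2.19 ± 0.64 higher on the log2 scale in colon (adjusted p = 0.0128), with 117 to 201 normalized reads against 11.8 to 50.4. Nr3c2 passed the filter only through colonic libraries and ileal day 4 libraries of transfer 1, in which it was high. Its calls on days 8 and 12 therefore add no support to the difference. Nr3c1 was lower in colon (-0.58 ± 0.20, adjusted p = 0.0294), with 1114 to 1325 against 1392 to 2180. The groups of 31.0% of all genes did not overlap on day 12. Within transfers, Nr3c2 was higher in colon in all 6 pairs of day and transfer that have both segments, by 1.06 to 3.41 on the log2 scale. Nr3c1 was lower in colon in 5 of these 6 pairs, with transfer 3 on day 8 as the exception (0.10).

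The Nr3c2 call on day 8 was lost when any of colon replicates 2, 3 and 4 or ileum replicates 1, 2 and 4 was left out, with fold changes of 1.58 to 2.02. The Nr3c1 call on day 12 was lost without colon replicate 2, 3 or 4 or ileum replicate 3 or 4 (-0.50 to -0.58), and with library totals (-0.44) or no filter (-0.54). The Nr3c2 call on day 12 was lost without ileum replicate 4 (1.87), and that on day 8 with all 4 colon day 8 libraries (1.70). For the NR4A genes the values were lower in colon on each day, for Nr4a3 by -1.47 ± 0.85 on day 4, -1.22 ± 0.76 on day 8 and -1.34 ± 0.66 on day 12, with adjusted p of 0.32, 0.223 and 0.123. The day 12 value of Nr4a3 rested on ileum replicate 1 (1422 normalized reads), without which it was 0.21, and without colon replicate 2 it passed (-1.89). Nr4a2 had -0.78 ± 0.54, -0.90 ± 0.54 and -0.88 ± 0.46, and Nr4a1 had -0.78 ± 0.45, -0.20 ± 0.45 and -0.30 ± 0.41. None of these passed with all libraries. On day 8 the direction was not stable, with 0.07 for Nr4a1 under library totals and, with all 4 colon libraries, 0.02 for Nr4a1 and 0.51 for Nr4a3. Within transfers Nr4a2 was lower in colon in all 6 pairs, Nr4a3 in 5 and Nr4a1 in 3.

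The days within each segment were compared to ask whether the receptors change after engraftment. No member was called from day 4 to day 8 or from day 8 to day 12 in either segment, by edgeR or by DESeq2. Of all genes, 0% were called with edgeR from day 4 to day 8 and from day 8 to day 12 in colon and from day 8 to day 12 in ileum, and 5.13% from day 4 to day 8 in ileum (0.718% higher, 4.42% lower). With an unadjusted p under 0.05 there was 1 member, Nr3c2 from ileum day 4 to day 8 (-1.68 ± 0.70, edgeR adjusted p = 0.164). The means of Nr3c2 were 100 ± 77.6 normalized reads on day 4 (n = 4) and 31.7 ± 40.2 on day 8 (n = 4), and the groups overlapped. The change from day 4 to day 12 was also compared between the segments, and no member and 0% of all genes were called, with 0 members at an unadjusted p under 0.05 and 0 called by DESeq2. By the means, Nr4a1 was ordered from the graft (1768) over colon day 4 (2970), colon day 8 (3851), colon day 12 (4063), ileum day 8 (4449) and ileum day 12 (5026) to ileum day 4 (5362), and neighbouring groups overlapped except for the graft and colon day 4. For Nr3c1 the order from below was colon day 4 (994), colon day 8 (1171), colon day 12 (1192), ileum day 8 (1319), ileum day 4 (1421), ileum day 12 (1765) and graft (2266). Colon days 4 and 8 did not overlap for Nr3c1 and Nr3c2, but neither step was called (0.22 ± 0.23 and -0.88 ± 0.64), and 10.3% of all genes did not overlap between these days.

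Colonic libraries of CX3CR1-DTR recipients were compared with the graft and with colon day 12 of CD11c-DTR recipients to ask whether the changes depend on the ablation model. The study lists fewer repeats of this group than the 6 labelled libraries, and since the labels do not say which it used, all 6 entered. Nr4a1 had 1790 to 5668 normalized reads in the 6 libraries (median 4301), Nr4a2 6.81 to 39.5 (16.2), and Nr4a3 28.5 to 85.3 (40.9). Nr3c1 had 24.5 to 193 (115) and Nr3c2 24.5 to 101 (79.6). For Nr4a1, 5 of the 6 libraries lay in the range of CD11c-DTR colon (1819 to 7418) and replicate 5 just below it. The 6 values of each of Nr3c1, Nr4a2, Nr4a3 and Nr3c2 lay below those of every colon day 12 library, in a comparison where 50.1% of all genes did not overlap. All 5 receptors were called from the graft, where 75.5% of 11718 genes were called, with 3 higher (39.5% of all genes) and 2 lower (36%). Nr4a3 and Nr3c2, among the 3 higher, passed the filter only through engrafted libraries. From colon day 12 4 were lower and 0 higher, against 35.4% and 25.2% of all genes (60.7% in all). From the graft, Nr4a1 was higher (1.5 ± 0.33, adjusted p = 0.000923) and Nr3c1 lower (-4.00 ± 0.33, adjusted p = 6.33e-08). Nr4a2 was lower than in the graft (-1.38 ± 0.54, adjusted p = 0.0315), the pooled ratio of Nr4a3 was 46.8 (counting interval 8.15 to 1870, adjusted p = 0.000186), and Nr3c2 was at least 7.22-fold higher than the graft floor (adjusted p = 2.5e-06). From colon day 12, Nr3c1 was lower by -3.39 ± 0.31 (adjusted p = 5.06e-07), Nr4a2 by -3.29 ± 0.47 (adjusted p = 3.15e-05), Nr4a3 by -2.16 ± 0.45 (adjusted p = 0.000791) and Nr3c2 by -0.90 ± 0.32 (adjusted p = 0.0264). Nr4a1 had -0.03 ± 0.28 (adjusted p = 0.935). Nr4a2 rested on 1 read in each of 2 of the 6 libraries and 4 to 9 in the others, and its call from the graft was lost without graft replicate 1 or 3 or CX3CR1-DTR replicate 3, 4 or 5 (-0.96 to -1.38). The Nr3c2 call from colon day 12 was lost without colon day 12 replicate 2 (-0.71). The epithelial sums were 175618 to 215354 and the macrophage sums 6430 to 14210, in the range of CD11c-DTR colon. The sums of small intestinal enterocyte markers (316 to 588, against 2072 to 12097 in CD11c-DTR colon) were lower, and those of monocyte markers reached lower values (768 to 5618, against 4719 to 12596). Their part in the results was not tested.

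The fold changes between the 2 count tables followed base composition. Over the 10595 genes with a value, the log2 fold change from CD11c-DTR colon day 12 to CX3CR1-DTR colon had a Spearman correlation of 0.64 across genes with the GC content of the last 500 transcript bases. The median fold change was -2.77 in the lowest and 0.70 in the highest of 5 GC classes of about equal size. Within the CD11c-DTR table there was no such trend, with -0.02 from the graft to colon day 12. Nr3c1 (28.4% GC), Nr4a2 (31%) and Nr3c2 (35.8%) lie in the lowest class, and Nr4a3 (43%) and Nr4a1 (45.8%) in the middle one. With offsets per library and GC bin, an alternative chosen after seeing the data, the changes from colon day 12 were -0.33 for Nr3c1 and -0.22 for Nr4a2, neither called, with adjusted p of 0.319 and 0.728. These are the highest over the alternatives, the lowest being 4.66e-36 and 1.56e-09. Nr3c2 was then higher than on day 12 (1.34), Nr4a3 was still lower (-1.49) and Nr4a1 was at 0.18. From the graft, Nr3c1 was still lower (-1.53) and Nr4a1 still higher (1.28), and Nr4a2 turned to 1.04 and was not called. Sequencing table and ablation model cannot be told apart.

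**Figure D4:**
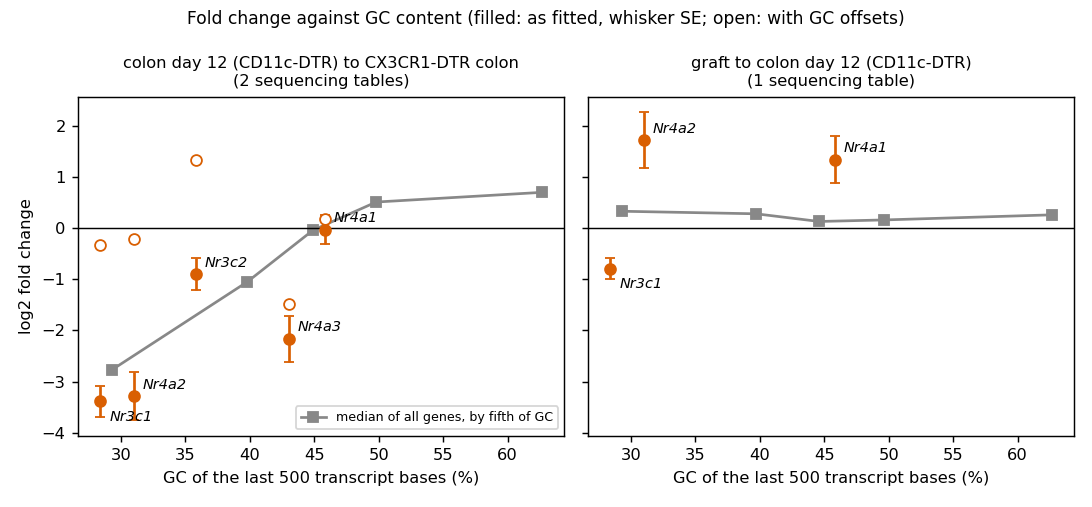
Log2 fold change (vertical axis) against the GC content of the last 500 transcript bases (%, horizontal axis), left between the 2 count tables and right within the CD11c-DTR table. Grey squares are the medians of all genes in 5 GC classes, filled circles the receptors with SE, and open circles the same with GC offsets. On the left the medians climb from -2.77 to 0.70, and Nr3c1 and Nr4a2 lie near the trend; on the right the medians are flat.

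The genes with which the receptors act were counted from lists of the pathway. From the graft to day 12, 37.7% of all genes were called higher and 24.9% lower in colon, and 35.9% and 20% in ileum, and the counts below stand beside these shares. Of 16 immediate early genes, 10 rose and 1 fell from the graft to colon day 12 (median log2 fold change 1.64, against 0.24 over all genes), and 10 rose and 0 fell in ileum (1.75 against 0.22). Egr1 rose most among those with a measurable graft level, with 8.32 ± 0.65 in colon and 8.28 ± 0.64 in ileum on day 12. Egr2 and Egr3 had 1 read each in the graft and means of 254 ± 66.7 and 84.5 ± 42.7 normalized reads in colon day 12 (n = 4). Fosb, an AP-1 subunit, rose by 3.47 ± 0.83 in colon day 12. Between segments on day 12, Egr3 (-2.19 ± 0.71), Ier3 (-1.21 ± 0.43) and Ier5 (-1.03 ± 0.27) were lower in colon. So were all 6 pan-leukocyte markers (median -2.46), whose part was not tested.

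Among 10 genes that signal to the NR4A promoters, Crem rose and Mef2a fell in all 6 comparisons with the graft. Crem encodes cAMP-responsive activators and repressors that bind the element shown above, and it rose by 4.06 ± 0.73 in colon and 5.18 ± 0.74 in ileum on day 12. With 10.6 to 27.5 normalized reads in the graft, Crem passed the filter only through engrafted libraries. Mef2a, a calcium-responsive factor that binds NR4A promoters, fell as well (-1.75 ± 0.31 and -1.24 ± 0.31). In all, 2 of the 10 rose and 6 fell in colon day 12 (median -1.06), where 37.7% of all genes rose and 24.9% fell, and 1 rose and 3 fell in ileum (0.14), where 35.9% rose and 20% fell. Nfatc1, Nfatc2, Mef2c and Crtc2 were lower in colon than in ileum on days 8 and 12, with Nfatc1 at -2.27 ± 0.49 on day 8 and -1.62 ± 0.42 on day 12. All 6 pan-leukocyte markers were lower in colon on these days too (medians -2.45 and -2.46), and their part was not tested. Of the RXR partners, with which Nr4a1 and Nr4a2 form dimers, Rxrb fell in colon on all 3 days (-1.21 ± 0.21 on day 12) and in ileum on days 4 (-0.92 ± 0.22) and 12 (-0.97 ± 0.21), and Rxra was lower in colon than in ileum on day 12 (-0.69 ± 0.24).

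The enzymes that set the corticosteroid supply of a cell moved in opposite directions. Hsd11b1, which regenerates active glucocorticoid, fell from 460 ± 138 normalized reads in the graft (n = 3) to 58.7 ± 39.2 in colon day 12 (n = 4, -2.79 ± 0.63, adjusted p = 0.000557) and 146 ± 85.2 in ileum day 12 (n = 4, -1.54 ± 0.61, adjusted p = 0.0357). Hsd11b2, which inactivates glucocorticoid and protects the mineralocorticoid receptor in epithelia, had 1 read in the graft. It had means of 3844 ± 1053 normalized reads in colon and 363 ± 157 in ileum on day 12, and was 3.42 ± 0.67 higher in colon (adjusted p = 0.000834). It thus had the order of Nr3c2 and of the epithelial markers. H6pd, which supplies the cofactor of Hsd11b1, fell in colon day 12 (-1.67 ± 0.45). The pan-leukocyte markers fell too, 6 of 6 in colon day 12 (median -4.0) and 3 of 6 in ileum day 12 (-1.41). Their part in the falls of Hsd11b1 and H6pd was not tested.

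Genes that respond to the steroid receptors were mixed. Of 14 tested glucocorticoid-induced genes, 7 rose and 1 fell in colon day 12 (median 1.89) and 8 rose and 1 fell in ileum (1.39), against 37.7% of all genes higher in colon and 35.9% in ileum. The metallothionein Mt1 rose by 4.46 ± 0.42 in colon and 4.17 ± 0.41 in ileum, and Mt2 had 1 read in the graft and means of 2217 ± 710 and 1499 ± 470 normalized reads. Il1r2, the decoy receptor of IL-1, rose by 4.66 ± 1.16 and 5.96 ± 1.21. The gene that fell in colon was Tsc22d3 (GILZ), a direct target of the glucocorticoid receptor (-1.44 ± 0.33). In ileum it was Anxa1, named here after its value was seen. The hemoglobin scavenger receptor Cd163 was lower in colon than in ileum on day 12 (-2.41 ± 0.88, adjusted p = 0.0388). All 7 tested macrophage markers were lower in colon in this comparison too (median -2.02), and their part was not tested. Of 6 tested genes of aldosterone-responsive ion transport, 4 rose and 1 fell in colon day 12 (median 1.78), with the sodium channel subunit Scnn1a up by 2.46 ± 0.54 and the sodium pump subunit Atp1b1 by 9.74 ± 0.64. Atp1b1 had 4.09 to 21.1 normalized reads in the graft, around the mean graft floor of 10.35. It thus passed the filter only through engrafted libraries, and the size of its change is uncertain. In ileum 2 of the 6 rose and 0 fell (0.37), a share near that of all genes (35.9% higher), and in colon 4 of 6 stand beside 37.7%. Scnn1a was 3.27 ± 0.53 higher in colon than in ileum. These are genes of the absorptive epithelium and moved with its markers, and the part of epithelial RNA in them was not tested.

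**Figure D5:**
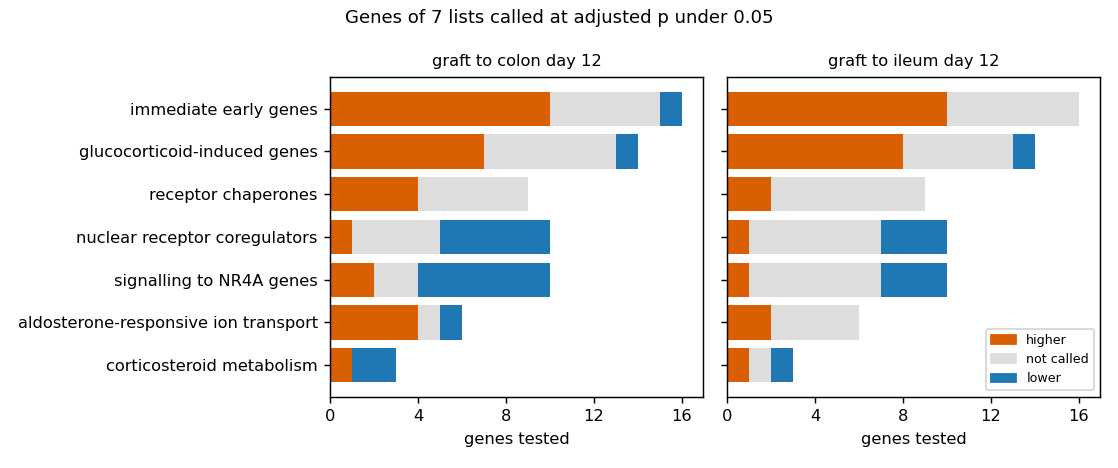
Numbers of tested genes (horizontal axis) that were higher, lower or not called in each of 7 lists, from the graft to colon day 12 (left) and ileum day 12 (right). Among immediate early genes 10 were higher in each segment, and among nuclear receptor coregulators 5 were lower in colon and 3 in ileum.

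Of 9 chaperones of the steroid receptors, 4 rose in colon day 12, near the 37.7% of all genes, and 2 rose in ileum, below the 35.9% there, with 0 falls in either. The Hsp90 gene Hsp90aa1 rose by 1.5 ± 0.35 and 1.75 ± 0.35. Of 10 nuclear receptor coregulators, 1 rose and 5 fell in colon (median -0.58) and 1 rose and 3 fell in ileum (-0.44), where 24.9% and 20% of all genes fell. The acetyltransferase Ep300 fell (-1.49 ± 0.29 and -1.04 ± 0.29), whereas the corepressor Nrip1 rose by 1.35 ± 0.29 and 1.19 ± 0.29. From CD11c-DTR colon day 12 to CX3CR1-DTR colon, 7 of 10 coregulators and 8 of 16 immediate early genes were lower, against 35.4% of all genes, in the comparison that followed GC content.

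The patterns of single genes over the 25 CD11c-DTR libraries were set against each receptor by Pearson correlation of log2(normalized reads + 50). The libraries share transfers, and the 3 graft libraries stand apart, so the values describe likeness and carry no test. Nr4a1 was most like Ppp1r15a (0.82), Tnfaip3 (0.792) and Cxcl1 (0.791), and Nr4a2 most like Tnfaip3 (0.875), Hilpda (0.824) and Cxcl2 (0.821). For Nr4a3 these were Hilpda (0.928), Mmp13 (0.92) and Impact (0.891). Nr3c1 was most like Ssbp2 (0.912), Serinc3 (0.877) and Tmem71 (0.876). Nr3c2 was most like Vdac1 (0.949) and Ndufb5 (0.947), which encode mitochondrial proteins. Among the receptors themselves, Nr4a2 and Nr4a3 had a correlation of 0.81.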

How the data were processed

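Expression was measured in 32 libraries with a MARS-seq derivative (3′ ends of poly(A) RNA). Per the labels, HISAT 0.1.6 and mm9 were used, and the authors kept uniquely mapping reads. The authors deposited raw counts on sense-strand exons, condensed to 1 row per gene (HOMER, version not given in the sources used here). Molecular identifiers were read, but a collapse is not stated. In the CX3CR1-DTR file, 52 columns carry no sample name and were not used. The 6 names in its header were taken to stand over the first value columns, which could not be checked.

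The test was the quasi-likelihood F test of edgeR 4.0.16 (R 4.3.3) after TMM scaling, with Benjamini-Hochberg adjustment over all genes tested. A fit of 7 groups and 25 libraries covered the 11842 genes with at least 50 reads per 10000000 mapped reads in at least 3 libraries. A second fit of graft, CD11c-DTR colon day 12 and CX3CR1-DTR colon (13 libraries) covered 11718 genes at the same level per reads on genes. SE is the absolute log2 fold change over the square root of F. Intervals of pooled count ratios are exact (95%, scipy 1.17.1). Simulated data held changes in a small share of the genes, whereas 60.4% of all genes were called from the graft to colon day 4. Recovery and false calls may therefore differ in the measured data. In the simulation, 14% of 2-fold and 76% of 4-fold changes were recovered from the graft to colon day 4 in the first fit. From the graft to CX3CR1-DTR colon in the second fit these were 11% and 78%. False calls made up 3.2% and 7.3% of all calls. A gene that was not called may thus still differ by 2-fold. GC content was taken from mm9 transcripts (GENCODE M1) and matched 90.4% of the genes of the second fit.

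Dates in the titles give the transfer of each CD11c-DTR library, with the date of ileum day 8 replicate 2, a year early, read as a slip. Deviations from the group means correlated with a median of 0.019 over 96 pairs of the same transfer and -0.003 over 171 pairs of different transfers. No library was a duplicate: chi-square over genes was at least 4.73 per degree of freedom in all 51 pairs within groups.

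The receptors and gene lists were chosen with earlier results of these data known. The 5 receptors were named in every comparison, listed genes where called (at most 4 per list and comparison, by size of change), and the 3 genes most like each receptor. Some genes that this rule names are not reported here. Lists of 11 cell types were summed as markers: pan-leukocyte, monocyte, macrophage, epithelium, colonic and small intestinal enterocyte, goblet cell, fibroblast, endothelium, T cell and B cell. The alternatives were DESeq2 1.42.0, other scalings, no filter, all 4 colon day 8 libraries, ileum day 4 of transfer 2 only, a block of transfer, only the compared groups, each library left out, and GC offsets in 20 bins.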

Additional observations from a re-analysis of the deposited data

Results flagged for a closer look

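Within groups of 4 to 6 libraries, 25 gene and group combinations were examined for a library far from the others, and 5 were found. These were Nr4a2 in colon day 12 replicate 2 (322 normalized reads against 124 to 149 in the others), Nr3c2 in the same library (201 against 117 to 126), Nr4a3 in ileum day 12 replicate 1 (1422 against 169 to 250), Nr4a2 in CX3CR1-DTR replicate 2 (39.5, from 9 reads) and Nr3c2 in CX3CR1-DTR replicate 1 (24.5, from 3 reads). Chance gives about 1 in 20 for normal values of unrelated combinations. Since some of the 5 share a library or rest on few reads, their number is not read as an excess. Colon day 12 replicate 2 had the highest macrophage marker sum of its group (27412) and the lowest epithelial sum (159538). CX3CR1-DTR replicate 1 is the shallowest library of its group, with 1223772 reads on genes.

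Differences between the segments on the same day passed the test for Nr3c2 on day 8 (1.92 on the log2 scale, higher in colon) and day 12 (2.19) and for Nr3c1 on day 12 (-0.58, lower in colon). Nr3c2 passed the filter only through libraries in which it was high, so its calls add no support to the difference. The change of the difference from day 4 to day 12 was not called for any receptor.

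Colon day 8 replicate 1, which was outside the comparisons, lay above every graft library in normalized reads for 4 receptors: Nr4a1 (5161 normalized reads), Nr4a2 (112), Nr4a3 (1012) and Nr3c2 (22.5). The Nr3c2 value is 2 reads, under the floor of this library (33.73 normalized reads). The macrophage marker sum of the library was 99758, against 6200 to 18461 in the other colon day 8 libraries, and its epithelial sum was 106718, against 203833 to 215298.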

How the results depend on the processing

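Over 1184 member fold changes under an alternative, 1079 kept their direction and their side of the threshold, 41 were no longer called, 9 became called and 55 turned, compared at 2 decimals. Of those that turned, 53 were called neither before nor after, 35 of them with a library left out. The other 2 turned with GC offsets, chosen after seeing the data: Nr4a2 from the graft to CX3CR1-DTR colon (1.04) and Nr3c2 from colon day 12 to CX3CR1-DTR colon (1.34), with Nr4a1 at 0.18 in the latter comparison, not called. With these offsets 2 of 5 receptors were called from colon day 12 to CX3CR1-DTR colon in place of 4.

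Library totals called 3 receptors from the graft to ileum day 8 in place of 5 and 1 between segments on day 12 in place of 2, which was also 1 with no filter on low counts. All 4 colon day 8 libraries left 0 called between segments on day 8 in place of 1, and ileum day 4 of transfer 2 only gave 1 on day 4 in place of 0. With the compared groups only, 3 were called from the graft to ileum day 4, ileum day 8 and CX3CR1-DTR colon in place of 5 each, and 0 between segments on day 8. Of 80 fold changes, 11 could not be fitted there, 7 of them called otherwise, because the gene fell under the filter in fewer libraries. For the other losses the cause was not tested.

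Leaving out 1 library at a time gave 3 to 5 called from the graft to colon day 12, 2 to 5 to ileum day 8, 0 to 1 between segments on day 8, 0 to 2 on day 12 and 0 to 1 from ileum day 4 to day 8. The low values of the first 2 came without graft replicate 2, and 0 on day 12 without ileum replicate 4. The 1 from ileum day 4 to day 8 was Nr3c2, without ileum day 4 replicate 1 (-2.07) or ileum day 8 replicate 3 (-2.85).

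Of the changes not called in the fits described above, these turned, and none was called where it turned. Nr3c2 from ileum day 4 to day 8 and Nr4a3 between segments on day 12 were called with certain libraries left out, as given above. Library totals gave 0.10 for Nr3c1 and 0.07 for Nr4a1 between segments on day 8, -0.06 and -0.04 from colon day 8 to day 12, and -0.11 for Nr3c1 from ileum day 4 to day 8. All 4 colon day 8 libraries gave 0.51 for Nr4a3 and 0.02 for Nr4a1 between segments, and -0.70 and -0.13 from colon day 8 to day 12. Ileum day 4 of transfer 2 only gave 0.14 for Nr3c2, -0.16 for Nr3c1 and 0.04 for Nr4a1 from ileum day 4 to day 8, and -0.74 for Nr3c2, 0.04 for Nr3c1 and -0.19 for Nr4a3 in the change of the segment difference. The replicate block gave -0.05 for Nr3c2 from colon day 8 to day 12 and -0.06 for Nr3c1 from ileum day 4 to day 8. With 1 library left out, Nr4a1 ranged from -1.07 to 0.13 between segments on day 8, from -0.53 to 0.68 from colon day 4 to day 8, from -0.24 to 0.97 from colon day 8 to day 12, from -0.56 to 0.03 from ileum day 4 to day 8, from -0.05 to 0.52 from ileum day 8 to day 12 and from -0.16 to 0.15 from colon day 12 to CX3CR1-DTR colon. Nr4a3 ranged from -1.89 to 0.21 between segments on day 12, from -0.40 to 1.6 from ileum day 8 to day 12 and from -0.42 to 1.68 in the change of the segment difference, where Nr4a2 ranged from -0.46 to 0.54. Nr3c1 ranged from -0.01 to 0.04 from colon day 8 to day 12 and from -0.09 to 0.23 from ileum day 4 to day 8, and Nr3c2 from -0.42 to 1.11 from ileum day 8 to day 12.

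The replicate block of transfer changed no member call, with 3, 4 and 5 called from the graft to colon days 4, 8 and 12 and 5, 5 and 4 in ileum. Over all genes it moved the calls between segments on day 4 from 377 to 1265 and from ileum day 4 to day 8 from 608 to 0. For the comparisons with CX3CR1-DTR colon, no paired analysis was possible because the titles carry no date. Where a library has 591817 reads, the floor is 50.69 normalized reads, so low levels of Nr3c2 and Nr4a3 there are not resolved.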
